A study of Mus musculus with 176 samples.

Results

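The genes described here encode 6 transcription factors that act on opposite sides of the choice between effector and memory or naive states in T cells: Prdm1 and Id2 on the effector side, and Id3, Bach2, Satb1 and Foxo1 on the other. They were chosen by name and make up 6 of the 53546 gene names in the count table. They were followed in single CD4 T cells of female C57BL/6J mice that had been immunized with P6, a peptide of apolipoprotein B, first in complete and then in incomplete Freund's adjuvant. Lymph node cells (inguinal and para-aortic) were kept in dasatinib before staining, and CD4 T cells with the surface phenotype of antigen experience, CD44hi among its markers, were sorted singly by whether they bound a P6:I-Ab tetramer. Of 176 sorted cells 32 were P6+ and the others P6-, and both kinds came from immunized mice, so that no cell of an unimmunized mouse was compared. The P6+ cells came from 1 mouse, and the labels tie no P6- cell to an animal.

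The P6+ cells were split by reads of Trbv13-2, the V segment of a T-cell receptor β chain. Of the P6+ cells, 16 held 48 to 780 Trbv13-2 reads and the other 16 held 0 or 1, so the limit of 10 reads fell in a wide gap. Filters on reads, genes and mitochondrial share kept all 32 P6+ cells and all but 15 of the P6- cells. Of the P6- cells kept, 11 carried the same name prefix as the P6+ cells. Passing cells held 522188 to 3401372 reads on genes. The median number of genes detected was 4596.5 in P6+ cells with Trbv13-2, 4222 in P6+ cells without it and 3432 in P6- cells. Each group of cells is 1 sample here, so no test was made between groups. In the paper the most abundant P6+ clone, of 10 cells, used TRBV13-2, so cells with Trbv13-2 may share a clone. All 32 P6+ cells were sequenced in the same 1 of 2 lanes, with 57 of the passing P6- cells, so that lane and tetramer sign overlap in part. The summed level of 10 T-cell genes ranged from 3302 to 14019 counts per 1000000 reads (cpm) in P6+ cells, and all but 2 passing P6- cells held 10 or more reads of at least 1 of these genes. Cd79a, which every B cell uses, had no cell with 10 reads, but Cd79b had 1 such cell in each P6+ group. Myeloid genes stayed under 2 cpm in every cell, erythroid genes were at 0, 2 P6- cells held a CD8 T or NK gene at 10 reads or more, and 1 P6- cell held Cd22, a B cell gene, at that count. Leaving out the 5 cells with such reads changed the sign of no member's ratio in either main comparison, but moved Id2 between the P6+ groups from a log2 ratio of 0.996 to 1.33 and past the 2-fold limit.

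Prdm1 encodes BLIMP-1, a repressor needed for terminal effector differentiation and for IL-10 production by effector regulatory T cells. BACH2 represses effector genes, Prdm1 among them, and BLIMP-1 in turn can repress Bach2. ID2 and ID3 lack a DNA-binding domain of their own and hold back E proteins, the factors that bind the E box; ID2 is linked with effector cells, and ID3 with memory precursors and follicular helper cells. SATB1 organizes chromatin in thymocytes and regulatory T cells, and FOXO1 drives genes of quiescence and lymph node homing such as Klf2 and Il7r.

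The promoters of the opposing pairs are shown so that the sites of these factors could be looked for beside the genes' levels. Each sequence is the 250 bases before the RefSeq start site on the gene's own strand, in build GRCm38.p6. The windows are chr10:44458749-44458998 on the minus strand for Prdm1, chr4:32417185-32417434 on the plus strand for Bach2, chr12:25096093-25096342 on the minus strand for Id2 and chr4:136143572-136143821 on the plus strand for Id3. Capitals mark matches on either strand to the E box CANNTG, to TGAGTCA, a core bound by BACH and AP-1 factors, to GAAAGTG, a core of the BLIMP-1 site, or to the FOXO site GTAAACA.
Prdm1: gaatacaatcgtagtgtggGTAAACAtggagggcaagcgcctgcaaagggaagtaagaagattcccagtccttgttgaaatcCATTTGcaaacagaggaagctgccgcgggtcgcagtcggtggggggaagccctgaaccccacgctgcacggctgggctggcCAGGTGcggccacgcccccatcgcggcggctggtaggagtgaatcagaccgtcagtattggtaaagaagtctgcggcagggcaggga
Bach2: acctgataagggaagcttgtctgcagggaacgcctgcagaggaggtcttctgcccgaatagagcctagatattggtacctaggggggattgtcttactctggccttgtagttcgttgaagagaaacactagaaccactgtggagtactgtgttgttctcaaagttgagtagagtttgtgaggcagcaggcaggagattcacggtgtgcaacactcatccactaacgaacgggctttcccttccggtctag
Id2: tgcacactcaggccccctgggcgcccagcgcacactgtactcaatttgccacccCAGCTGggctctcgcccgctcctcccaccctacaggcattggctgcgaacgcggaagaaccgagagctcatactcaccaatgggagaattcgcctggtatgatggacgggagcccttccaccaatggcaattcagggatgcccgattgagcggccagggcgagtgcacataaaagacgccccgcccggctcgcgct
Id3: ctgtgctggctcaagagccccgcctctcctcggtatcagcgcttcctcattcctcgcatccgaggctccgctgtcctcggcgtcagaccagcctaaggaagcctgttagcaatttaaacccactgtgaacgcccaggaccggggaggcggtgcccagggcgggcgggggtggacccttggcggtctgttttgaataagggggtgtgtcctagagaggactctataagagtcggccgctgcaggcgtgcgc

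The Prdm1 window held 2 E boxes and 1 FOXO match, the latter starting 231 bases before the start site. The Id2 window held 1 E box, starting 196 bases before the start. No match to any of the 4 motifs was present in the Bach2 and Id3 windows, which says only that these letters are absent there. All the windows shown lay inside the annotated gene spans given below. Bases before the outermost annotated start of these genes were thus not searched. Of 32851 mouse promoter windows of this length, 66.2% held an E box, 3.17% the FOXO site, 4.46% the BACH and AP-1 core and 4.01% the BLIMP-1 core. None of the matches overlapped another, and none is known from these data to be bound. All 6 genes had a promoter entry, with 5 starts listed for Satb1.

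Detection was read at 10 reads, since many cells held 1 to 9 reads of a gene. No passing P6- cell lay between 5 and 14 reads of Prdm1, between 6 and 32 of Id2, between 2 and 39 of Id3, between 6 and 15 of Bach2, between 9 and 12 of Satb1 or between 7 and 15 of Foxo1. The limit of 10 reads thus lay in a wide gap for Id3 but not for Satb1, and P6+ cells could lie near it, the lowest Id2 count past the limit being 13 reads. The plot of single cells shows this spread.

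**Figure D1:**
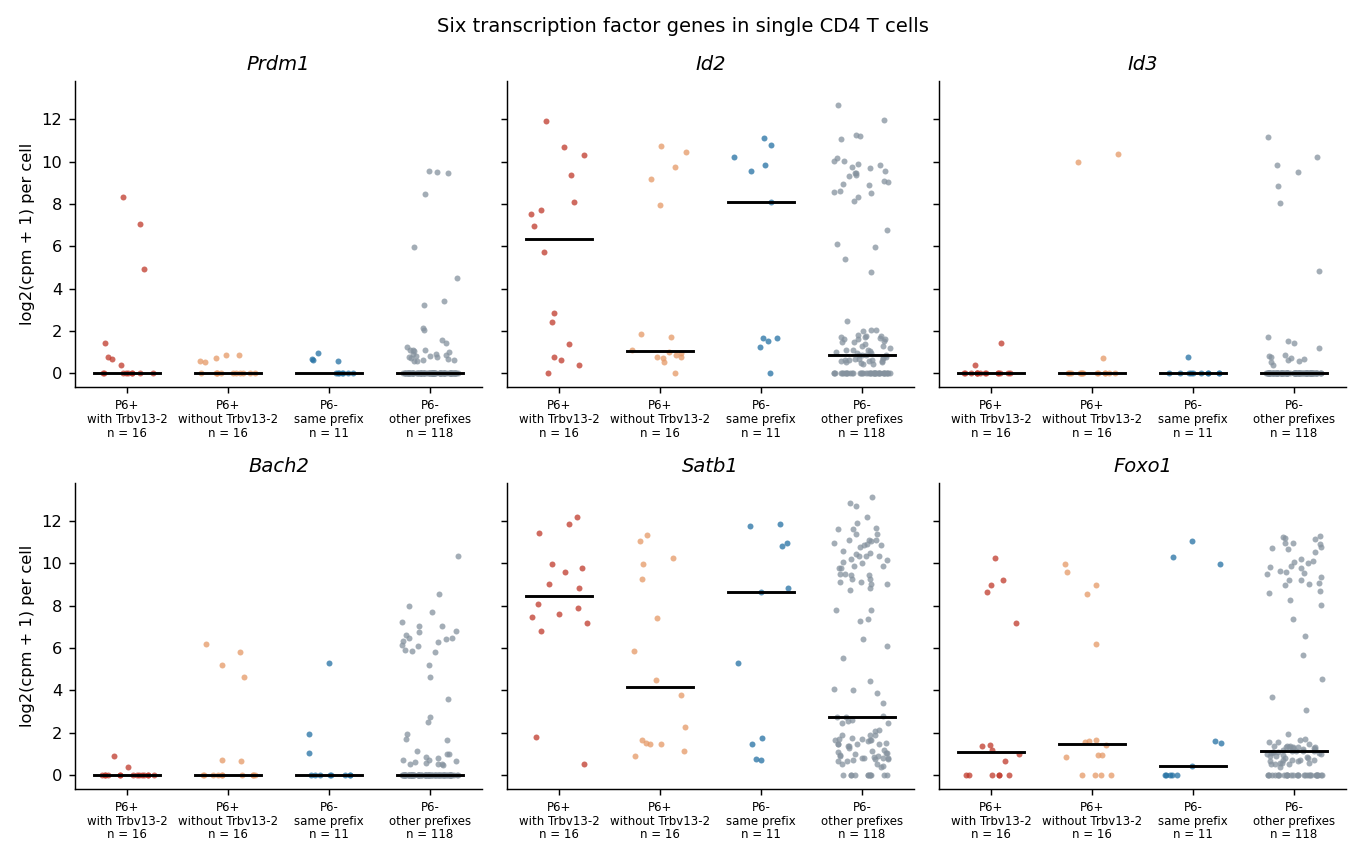
Level of each of the 6 genes as log2(cpm + 1) on the y axis, with 1 point per passing cell and a black line at the median of each group on the x axis. Most genes split into cells near 0 and cells well above it, and the medians of Prdm1, Id3 and Bach2 were 0 in all 4 groups.

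Prdm1 (chromosome 10, 44437177 to 44528501, minus strand) was read in few cells. In P6+ cells with Trbv13-2 the lowest and the median level were 0 cpm and the highest was 323 cpm. Only 3 of these 16 cells passed 10 reads, with 441, 309 and 67 reads (18.8%, 95% exact binomial interval 4.05 to 45.6%). Of the P6+ cells without Trbv13-2, 0 of 16 passed, and no cell held more than 1 read. A count of 0 is taken here and below to allow 3 counts, which gives a share of up to 18.8%. The exact binomial limit for 0 of 16 is somewhat higher, at 20.6%. Among P6- cells 7 passed (5.43%, 2.21 to 10.9%), and the highest level, 759 cpm, exceeded that of any P6+ cell. All intervals given here cover counting error only. Those of summed reads leave out differences between cells, and PCR copies of a molecule could not be told apart. Those of shares take cells as independent.

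Summed over cells, Prdm1 stood at 27.2 cpm with Trbv13-2 (95% exact Poisson interval 25.4 to 29.1) and at 0.172 cpm without it (0.0557 to 0.400). The log2 ratio, taken with 1 cpm added to each side, was 4.59. Leaving out the cell with most reads in each group, which held 53.6% of the Prdm1 reads of the group with Trbv13-2, left a log2 ratio of 3.73. It was 1.87 with 10 cpm added and 1.25 as a difference of means over cells. The levels of P6+ and P6- cells were closer, at 13.9 and 23.2 cpm, a log2 ratio of -0.69. That value was -1.32 against P6- cells of the same lane but 3.57 against the 11 P6- cells of the same prefix, none of which passed 10 reads.

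Id2 (chromosome 12, 25093799 to 25097140, minus strand) was the highest of the 6 genes per kilobase of exon in P6+ cells of either group, at 240 cpm per kb with Trbv13-2 and 120 cpm per kb without it. In P6+ cells with Trbv13-2 the level ran from 0 through a median of 88.7 to 3859 cpm. Without Trbv13-2 it ran from 0 through 1.09 to 1692 cpm, and in P6- cells from 0 through 1.06 to 6517 cpm. The groups overlapped over most of their range. Among the cells with 10 or more reads the median was 242 cpm with Trbv13-2 (10 cells), 851 cpm without it (5 cells) and 704 cpm in P6- cells (37 cells). The group with the largest share of such cells had the lowest median in them, from few cells.

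Of the cells with Trbv13-2, 10 of 16 passed 10 reads of Id2 (62.5%, 35.4 to 84.8%), against 5 of 16 without it (31.2%, 11.02 to 58.7%) and 37 P6- cells (28.7%, 21.1 to 37.3%). The intervals of both P6+ groups overlapped. One cell with 9870 reads held 55.8% of the Id2 reads of the group with Trbv13-2. The pooled levels of 585 cpm (577 to 594) and 293 cpm (287 to 299) gave a log2 ratio of 0.996, just under the 2-fold limit of 1. It was 0.51 without the cell with most reads in each group, and past the limit with TMM factors (1.03), with size factors (1.05) and as a difference of means over cells (1.78). Against P6- cells, P6+ cells had a log2 ratio of 0.62, which turned to -0.55 against the P6- cells of the same prefix, where 6 of 11 cells passed 10 reads. As a difference of means over cells this ratio was 1.42, and 2 of its 11 alternatives were past the 2-fold limit.

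Id3 (chromosome 4, 136143497 to 136145755, plus strand) was also read in few cells. No P6+ cell with Trbv13-2 held more than 2 Id3 reads, so 0 of 16 passed, which allows a share of up to 18.8%. Without Trbv13-2, 2 of 16 cells passed (12.5%, 1.55 to 38.3%), with 2253 and 2026 reads, and these cells held 99.98% of that group's Id3 reads. Among P6- cells 7 passed (5.43%, 2.21 to 10.9%), with 39 to 7302 reads.

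The pooled level of Id3 was 0.0993 cpm with Trbv13-2, from 3 reads, and 147 cpm without it. Id3 was 1479-fold lower in the cells with Trbv13-2, with a counting interval of 506 to 7175. This ratio rested on the 2 cells just named. The cell with 2026 Id3 reads also held 1 Trbv13-2 read, and with the limit set at 1 Trbv13-2 read it changed group, which moved the log2 ratio from -7.07 to -0.46. As a difference of means over cells it was -1.20, and -3.96 with 10 cpm added. P6+ and P6- cells lay at 72.2 and 63.4 cpm, a log2 ratio of 0.18, which turned to -0.57 against P6- cells of the same lane and to -0.03 with cells of at least 3000 genes. Of the P6- reads, 56.5% came from 1 cell. In the 11 P6- cells of the same prefix Id3 was near 0, with 1 read in all.

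Bach2 (chromosome 4, 32238804 to 32586108, plus strand) was low in most of the cells that held it. In P6+ cells with Trbv13-2 no cell held more than 1 read, so 0 of 16 passed. Without Trbv13-2, 4 of 16 passed (25%, 7.27 to 52.4%), with 157, 77, 70 and 65 reads. Among P6- cells 25 passed (19.4%, 12.95 to 27.3%), and these had a median of 86.4 cpm, although 1 cell with 1538 reads reached 1298 cpm. The 0 of 16 P6+ cells with Trbv13-2 allow a share of up to 18.8%, which lies within both of the other intervals.

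Pooled Bach2 stood at 0.0662 cpm with Trbv13-2, from 2 reads, and at 12.7 cpm (11.5 to 14.1) without it. The level was 192-fold lower with Trbv13-2, with a counting interval of 52.9 to 1594, and the log2 ratio with 1 cpm added was -3.69. Leaving out the cell with most reads in each group gave -3.11, means over cells gave a difference of -1.37, and adding 10 cpm gave -1.18. P6+ cells as a whole had 6.29 cpm and P6- cells 23.3 cpm, a log2 ratio of -1.74. A single P6- cell held 32.4% of the P6- reads, and against P6- cells of the same lane the value was -0.83, inside the 2-fold limit. Against those of the same prefix it was 0.52, of the opposite sign.

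Satb1 (chromosome 17, 51736187 to 51833290, minus strand) was the member read in most cells. In P6+ cells with Trbv13-2 the median cell stood at 364 cpm and the highest at 4602 cpm. The medians were 17.2 cpm without Trbv13-2 and 5.95 cpm in P6- cells, where the highest cell reached 9095 cpm. All 32 P6+ cells held at least 1 Satb1 read, and the groups overlapped.

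Of the cells with Trbv13-2, 14 of 16 passed 10 reads of Satb1 (87.5%, 61.7 to 98.4%), against 9 of 16 without it (56.2%, 29.9 to 80.2%) and 62 P6- cells (48.1%, 39.2 to 57.03%). Of the P6- cells of the same prefix, 7 of 11 passed (63.6%, 30.8 to 89.1%), an interval that overlapped that of the cells with Trbv13-2. These intervals take cells as independent, although the P6+ cells came from 1 mouse, so they do not test a difference between groups. Pooled levels differed less, at 988 and 520 cpm in the P6+ groups, a log2 ratio of 0.92, and at 758 and 759 cpm in P6+ and P6- cells, a log2 ratio of -0.0017. The first ratio was 1.33, past the 2-fold limit, without the cell with most reads in each group. It was 0.67 with the limit set at 1 Trbv13-2 read. The difference of means over cells of log2(cpm + 1) was 2.88 between the P6+ groups and 1.39 between P6+ and P6- cells. Satb1 was thus read in a larger share of P6+ cells (71.9%, 53.3 to 86.3%) than of all P6- cells, but not at a higher summed level. The intervals of these shares overlapped. Against P6- cells of the same prefix the means of log2(cpm + 1) were close, at 6.68 in P6+ cells and 6.63.

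Foxo1 (chromosome 3, 52268336 to 52353221, plus strand) was spread evenly. It passed 10 reads in 5 of 16 P6+ cells of either group (31.2%, 11.02 to 58.7%) and in 40 P6- cells (31.01%, 23.2 to 39.7%). The median cell held 1.14 cpm with Trbv13-2, 1.81 cpm without it and 1.18 cpm among P6- cells, and the highest cells held 1209, 998 and 2489 cpm. The log2 ratio was 0.47 between the P6+ groups and -0.61 between P6+ and P6- cells. Neither passed the 2-fold limit, and with means over cells the first was -0.15.

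**Figure D2:**
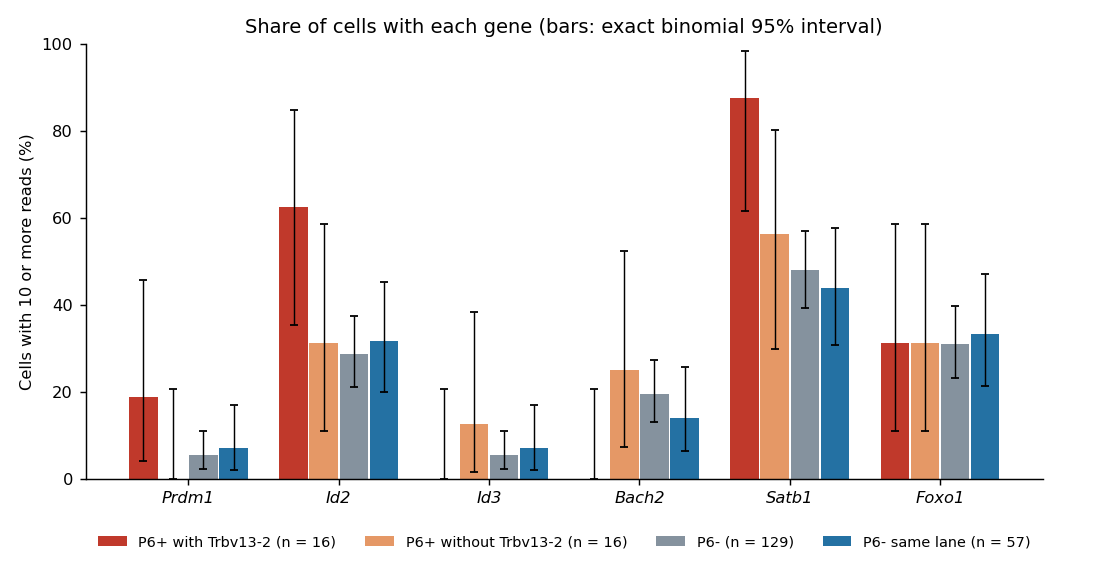
Percent of cells with 10 or more reads of each gene (y axis) in the P6+ groups, in all passing P6- cells and in the 57 P6- cells of the lane that held the P6+ cells; error bars are exact binomial 95% intervals. Foxo1 stood between 31.01% and 33.3% in all 4 groups, while Satb1 reached 87.5% in P6+ cells with Trbv13-2.

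The members were then set against all genes. Of 7846 genes with 10 cpm or more over the passing cells, 30.3% were higher by 2-fold or more in P6+ cells with Trbv13-2 than in those without it, and 28.7% were lower. Prdm1 was the 1 member of 6 among the former, and Id3 and Bach2 were the 2 members among the latter. Between P6+ and P6- cells 19.8% of genes were higher and 30.4% lower, with 0 members higher and 1, Bach2, lower. Against P6- cells of the same prefix 46.8% were higher and 20.3% lower, with 2 members, Prdm1 and Id3, higher and 0 lower. The median log2 ratio of all these genes was 0.00, -0.14 and 0.72 in the 3 comparisons, and that of the members 0.70, -0.31 and 0.07. The comparisons with P6- cells share the P6+ cells.

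**Figure D3:**
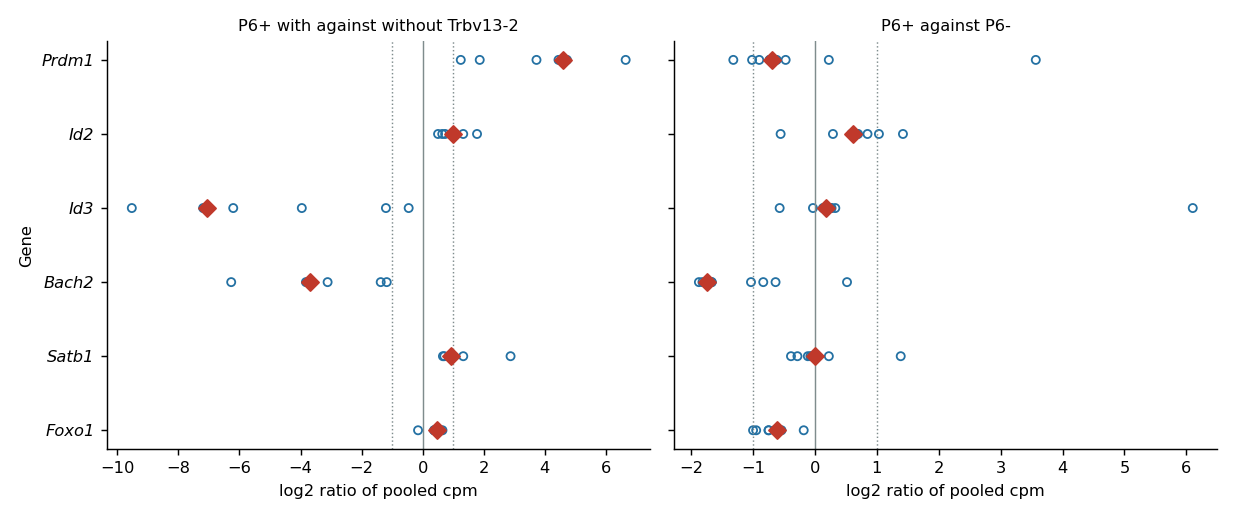
Log2 ratio of pooled cpm (x axis) for each gene (y axis), with the value as reported as a filled diamond and each alternative way of computing it as an open circle; dotted lines mark 2-fold. Within P6+ cells, Prdm1, Id2 and Satb1 stayed to the right of 0 and Id3 and Bach2 to the left in all 9 alternatives. Foxo1 kept its sign in 8 of them. In the comparison with P6- cells every gene but Foxo1 changed sign under at least 1 alternative.

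Per kilobase of exon, the order of the pooled levels differed between the P6+ groups. With Trbv13-2 it ran Id2, Satb1 (51.9 cpm per kb), Foxo1 (26.98), Prdm1 (4.88), Id3 (0.0555) and Bach2 (0.00666). Without it, Id3 stood second at 82.02 cpm per kb, before Satb1 (27.3), Foxo1 (19.4), Bach2 (1.28) and Prdm1 (0.0308), but this place of Id3 rested on the 2 cells with 99.98% of its reads, 1 of which changed group at a limit of 1 Trbv13-2 read. In P6- cells Id2 (117.4) was followed by Satb1 (39.9), Foxo1 (35.6), Id3 (35.4), Prdm1 (4.15) and Bach2 (2.34), where the neighbours Foxo1 and Id3 hardly differed. Of the Id3 reads of P6- cells, however, 56.5% came from 1 cell. Exons of Bach2, Satb1 and Foxo1 share 5.40%, 1.49% and 7.78% of their bases with other annotated genes, and reads there may not have been counted.

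The opposing genes Prdm1 and Bach2 were then set against each other in each cell. Among P6+ cells with Trbv13-2, 3 held Prdm1 without Bach2 at 10 reads, 0 held Bach2 and 13 held neither. Without Trbv13-2, 0 held Prdm1, 4 held Bach2 and 12 held neither. No P6+ cell held both (0 of 32, which allows a share of up to 9.38%). The 3 cells with Prdm1 had 0, 0 and 1 Bach2 reads, and the 4 cells with Bach2 had 0, 0, 0 and 1 Prdm1 reads.

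Among P6- cells, 6 held Prdm1 alone, 24 held Bach2 alone, 98 held neither and 1 held both, with 354 cpm of Prdm1 and 67.6 cpm of Bach2. With genes this rare, few cells with both could be seen: the product of both shares gives 1.36 cells among P6- cells and 0.375 among the 32 P6+ cells. The counts of cells with both genes were therefore close to that product, and separate detection of Prdm1 and Bach2 could not be told from their rarity.

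**Figure D4:**
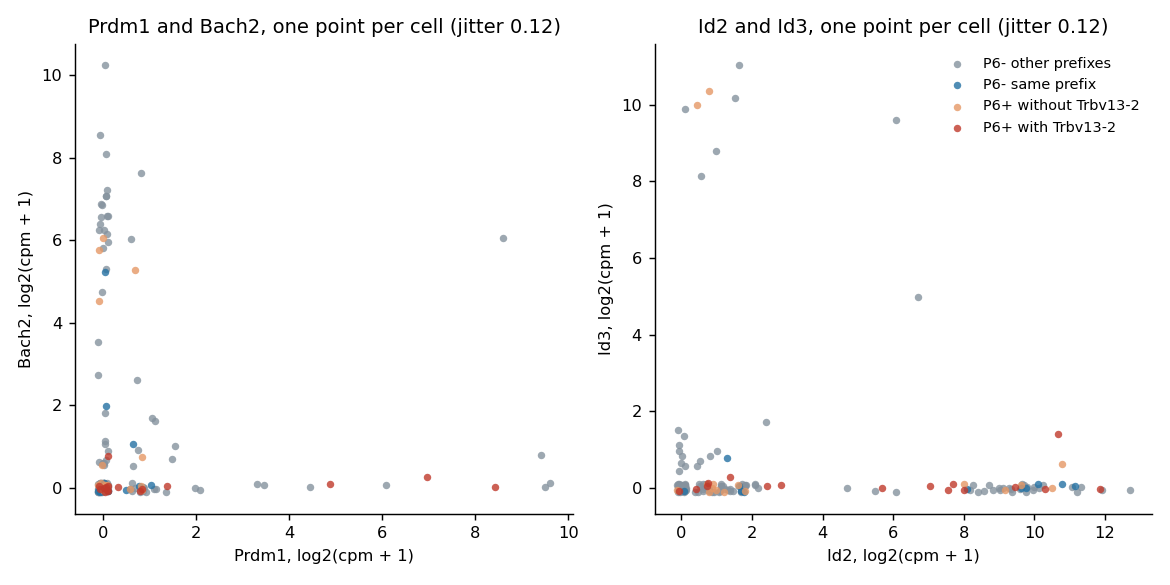
Level of Bach2 against Prdm1 (left) and of Id3 against Id2 (right), both as log2(cpm + 1), with 1 point per passing cell, coloured by group and jittered by up to 0.12. Cells with either gene well above 0 lie along the axes, with 1 P6- cell away from them on the left and 2 on the right.

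Id2 and Id3 gave a similar picture. Among P6+ cells with Trbv13-2, 10 held Id2 alone, 0 held Id3 and 6 held neither. Without Trbv13-2, 5 held Id2 alone, 2 held Id3 alone and 9 held neither, and both cells with Id3 had 1 Id2 read. The median over cells of the difference in log2(cpm + 1), Id2 minus Id3, was 6.36 with Trbv13-2 and 1.06 without it. Counted at any read, Id2 was higher than Id3 in 15 of 16 and in 13 of 16 cells. Only 10 and 5 of these held 10 or more Id2 reads. In P6- cells of the same prefix the median difference was 8.12, and Id2 was higher in 10 of 11 cells. Over all passing P6- cells the median difference was 0.86.

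Among P6- cells, 35 held Id2 alone, 5 Id3 alone, 87 neither and 2 both. The product of the shares gives 2.01 cells, and 0.938 among the P6+ cells, of which 0 held both. One P6- cell with both had 67.7 cpm of Id2 and 738 cpm of Id3 together with 729 cpm of Prdm1, and the other had 106.9 cpm of Id2 and 27.8 cpm of Id3. Spearman's rho over the passing P6- cells, given as a description, was -0.19 for Id2 with Id3 and -0.05 for Prdm1 with Bach2.

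Genes of the same side were also counted together. Of the 3 P6+ cells with Prdm1, 2 also held Id2 (product of shares 1.41 cells), and of the 7 P6- cells with Prdm1, 3 did (2.01 cells). The P6+ cell with 157 Bach2 reads held 2253 Id3 reads, but the other 3 cells with Bach2 held 0, and 2 of the 7 P6- cells with Id3 held Bach2 (1.36 cells). Foxo1 was found with Id3 in 4 P6- cells (2.17 cells) and in 0 P6+ cells, and with Bach2 in 6 P6- cells (7.75 cells). Satb1 was found with Bach2 in 3 of 4 P6+ cells (2.88 cells) and 16 of 25 P6- cells (12.02 cells), and with Foxo1 in 8 of 10 P6+ cells (7.19 cells) and 23 of 40 P6- cells (19.2 cells). Satb1 and Id3 were together in 3 P6- cells (3.36 cells). Across sides, 9 of the 25 P6- cells with Bach2 held Id2 (7.17 cells), and 0 of the 4 P6+ cells with Bach2 did (1.88 cells). Id2 and Satb1 were together in 12 P6+ cells (10.8 cells) and 17 P6- cells (17.8 cells). For Id2 and Foxo1 these counts were 6 (4.69 cells) and 12 (11.5 cells). Prdm1 was found with Satb1 in 2 P6+ cells (2.16 cells) and 3 P6- cells (3.36 cells). With Foxo1 it was found in 2 (0.938 cells) and 2 (2.17 cells), and with Id3 in 0 (0.188 cells) and 1 (0.380 cells). No test was made of these counts.

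**Figure D5:**
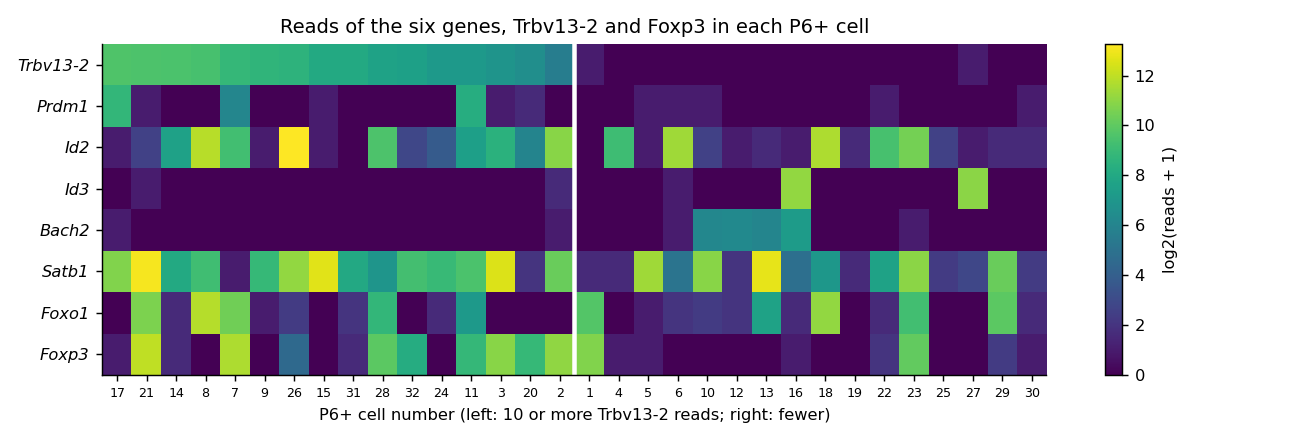
Reads of Trbv13-2, the 6 genes and Foxp3 as log2(reads + 1) (colour) in each of the 32 P6+ cells (x axis, with arbitrary numbers); the white line parts cells with 10 or more Trbv13-2 reads from the others. Prdm1 is bright in 3 cells to the left of the line and Bach2 and Id3 only in cells to the right.

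Counting all 6 genes at 10 reads, a P6+ cell with Trbv13-2 held 1 to 4 of them, with a median of 2. Without Trbv13-2, 3 of 16 cells held 0 and the most was 3. Among P6- cells 32 held 0 and 5 held 4. Cells with Trbv13-2 also had more genes detected, as given above, and whether this played a part was not tested. Thinned to the 522188 reads of the shallowest cell, the share expected to hold 10 reads moved most for Satb1 without Trbv13-2, from 56.2% to 49.04%, and for Id2 with Trbv13-2, from 62.5% to 56.3%.

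Foxp3, the lineage factor of regulatory T cells, was read at 10 or more in 9 of 16 P6+ cells with Trbv13-2, in 2 of 16 without it and in 19 P6- cells (14.7%). With Trbv13-2, Foxp3 was present in 2 of the 3 cells with Prdm1, 7 of the 10 with Id2, 7 of the 14 with Satb1 and 4 of the 5 with Foxo1. Without Trbv13-2 it was present in 1 of the 5 cells with Id2, 1 of the 9 with Satb1 and 2 of the 5 with Foxo1. Among P6- cells it was present in 2 of 7 with Prdm1, 7 of 37 with Id2, 11 of 62 with Satb1, 12 of 40 with Foxo1, 1 of 25 with Bach2 and 1 of 7 with Id3. None of the 4 P6+ cells with Bach2 and neither of the 2 with Id3 held Foxp3. The part of Foxp3-positive cells in the levels of the members was not tested.

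Related genes were counted over fixed lists, by the same 2-fold limit. Of 18 effector genes, 16 passed the filter on level, and 7 were higher and 3 lower in P6+ cells with Trbv13-2 than without it, beside 30.3% and 28.7% of all genes, with a median log2 ratio of 0.75 against 0.00 for all genes. Il10, a target of BLIMP-1, had 59.7 cpm from 3 cells with Trbv13-2, 1 of which held 61.4% of the reads, and 0 reads without it, at least 580-fold higher against a floor of 3 reads over the group. Gzmb, a cytotoxic granule protease, had 1023 and 573 cpm, inside the limit, with 52.3% of the latter from 1 cell. Between P6+ and P6- cells 8 were higher and 2 lower, beside 19.8% and 30.4% of all genes, and Gzmb had 802 against 133.97 cpm, with 50.4% of the latter from 1 cell.

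Of 13 memory and naive genes, 12 passed the filter, and 4 were higher and 4 lower with Trbv13-2, close to the 30.3% and 28.7% of all genes, with a median log2 ratio of -0.12. Tcf7, which encodes the memory and follicular helper factor TCF-1, had 1.42 cpm with Trbv13-2 and 396 cpm without it, a log2 ratio of -7.35, and passed 10 reads in 0 and 7 of 16 cells. Bcl6, the factor of follicular helper cells, had 0.563 and 174 cpm, a log2 ratio of -6.81, with 50.3% of the latter from 1 cell. Foxp1, a relative of the FOXO genes that keeps T cells quiescent, went the other way, with 118.6 and 16.4 cpm, but 84.3% of the latter came from 1 cell. Between P6+ and P6- cells 0 were higher and 7 lower, beside 19.8% and 30.4% of all genes, among them Foxp1 with 68.4 against 483 cpm.

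The FOXO1 targets, all 4 of which are also on the memory and naive list, split in the comparison within P6+ cells: 1 was higher with Trbv13-2 and 2 were lower, beside 30.3% and 28.7% of all genes. Klf2, a factor for tissue exit, had 58.5 cpm with Trbv13-2 and 703 cpm without it, while Il7r, the interleukin-7 receptor, had 214 and 51.99 cpm, with 73.5% of the latter from 1 cell. Between P6+ and P6- cells 0 were higher and 3 lower, beside 19.8% and 30.4% of all genes, with Il7r at 134.6 and 391 cpm and a log2 ratio of -1.53.

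Of 13 partners and relatives of the members, 7 passed the filter, and 3 were higher and 2 lower with Trbv13-2, beside 30.3% and 28.7% of all genes. Tcf3, which encodes the E protein E2A that ID proteins bind, had 12.1 and 170 cpm, but 94.2% of the former and 84.6% of the latter came from 1 cell each. Tcf12, which encodes the E protein HEB, had 14.3 and 138.2 cpm, with 69.7% of the latter from 1 cell. Between P6+ and P6- cells 1 was higher and 3 lower, beside 19.8% and 30.4% of all genes, and Bach1, the close relative of Bach2, had 0.135 and 15.6 cpm. Only 3 P6- cells held 10 reads of Bach1, 1 of them with 63.9% of the reads, and it was at 0 in the P6- cells of the same prefix.

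Lists of T-cell subsets were counted in the same way, again beside 30.3% of all genes higher and 28.7% lower. Of 5 regulatory T-cell genes 3 were higher and 0 lower with Trbv13-2, with a median log2 ratio of 1.14. Of 4 follicular helper genes 0 were higher and 3 lower, with a median of -2.29. Among the latter Cxcr5, the receptor that leads cells to follicles, had 98.4% of its reads with Trbv13-2 and 96.5% of those without it in 1 cell each. Of 10 T-cell genes 0 were higher and 1 lower. In P6+ against P6- cells, beside 19.8% and 30.4% of all genes, 1 regulatory T-cell gene was higher and 0 lower, with a median of 0.77, 0 follicular helper genes were higher and 1 lower, with a median of 0.10, and 0 T-cell genes were higher and 1 lower. The lists overlap, since Il2ra is both an effector and a regulatory T-cell gene and Bcl6 is on both the memory and naive and the follicular helper lists.

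Genes whose level over all passing cells was most like that of a member were sought among 1547 genes with 10 reads in at least 20% of cells. No Spearman's rho reached 0.4. The highest were those of Id2 with Srgn (0.39), Serp1 (0.39) and Odc1 (0.38), and of Satb1 with Samhd1 (0.38), Rpl9-ps6 (0.32) and Tpr (0.32). For Foxo1 they were Acap1 (0.29), Smarce1 (0.28) and Tsc22d3 (0.27), and for Id3 Rps2 (0.29), Sp110 (0.28) and Rps2-ps10 (0.28). Bach2 was followed by Rpl23 (0.29), Rpl37 (0.26) and Ndufv2 (0.26), and Prdm1 by Myl6 (0.26), Rpl11 (0.26) and Dpf2 (0.23). In counts this sparse such values are weak, and ranks of cells at 0 are tied.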

How the data were processed

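Single cells were sequenced by Smart-Seq2, which has no molecular identifiers. The authors mapped reads with STAR 2.6.0a to GRCm38 with Ensembl annotation and deposited unnormalized read counts of each gene in 176 cells. FastQC 0.11.7 and SAMtools 0.1.19 are named in the submitters' processing notes. The strand setting of the counting was not given in the sources used here. The tetramer sign deposited by the authors equalled the label of all 176 cells.

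Of 53647 rows, 81 names occurred more than once and were averaged. Cells needed 500000 reads, 2000 genes and under 10% of reads on 37 mitochondrial genes, which kept 32 P6+ and 129 of 144 P6- cells. The mapping rate, a further filter of the study, was not used here. More P6- cells were kept than in the study, and whether that filter makes up the difference was not tested. The reads of each gene, added up within a group, were divided by all reads of that group and scaled to 1000000 (cpm). Log2 ratios had 1 cpm added. Genes with 10 cpm over all 161 passing cells counted, and called means past 2-fold. Because each group is 1 sample, no test was run. Intervals are exact Poisson for reads and exact binomial (Clopper-Pearson) for cells, at 95%, and a count of 0 allows 3 counts. Doublets were not called, since wells were filled by single-cell sorting.

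The members and the lists of effector, memory and naive, partner, FOXO1 target, T, B, myeloid, CD8 T and NK, erythroid, regulatory T and follicular helper genes were chosen with earlier results of these data known. Of the lists, 1 gene is not reported here and was left out of the counts. Named genes were the members, Foxp3, Trbv13-2, 10 other genes of the lists, and for each member the 3 genes of highest Spearman's rho, without names starting with Gm. Cd79a, Cd79b, Cd22, Cxcr5 and Il2ra were named after their values were seen. Gene positions came from GENCODE annotation of GRCm38, promoters from RefSeq. Scripts were tested on simulated data. TMM factors (edgeR 4.0.16) and size factors (DESeq2 1.42.0) served as alternatives without a test. Python, numpy, pandas and scipy did the remainder.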

Additional observations from a re-analysis of the deposited data

Results flagged for a closer look

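A signal appeared in cells that entered only the alternatives with no filter on cells. Of the 15 P6- cells that the filters removed, 3 held 10 or more Prdm1 reads (20%, 95% exact binomial interval 4.33 to 48.1%), against 7 passing P6- cells (5.43%, 2.21 to 10.9%), and the intervals overlapped. These 3 cells held 10, 16 and 18 Prdm1 reads among totals of 31113, 51446 and 59042 reads, and 4710, 5263 and 5520 genes were detected in them. Whether their low totals played a part was not tested.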

How the results depend on the processing

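P6+ cells of 1 mouse give no replicate error, and several pooled values rest on 1 or 2 cells. Of the shares recomputed under alternatives, 120 stayed within the interval of the reported share and 18 did not. Counted at 1 read, detection moved to 31.2% for Prdm1 without Trbv13-2 and 27.1% in P6- cells; to 93.8% for Id2 in both P6+ groups and 68.2% in P6- cells; to 16.3% for Id3 and 34.9% for Bach2 in P6- cells; to 100% for Satb1 in both P6+ groups and 91.5% in P6- cells; and to 62.5%, 75% and 72.1% for Foxo1 with Trbv13-2, without it and in P6- cells. With P6- cells of the same prefix, the P6- shares were 0% for Prdm1 and Id3, 54.5% for Id2, 9.09% for Bach2 and 63.6% for Satb1. At 1 read, cells with both Prdm1 and Bach2 numbered 3 among P6+ and 12 among P6- cells, and those with both Id2 and Id3 numbered 5 and 12; at 50 reads 1 P6- cell held both Id2 and Id3.

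Of 120 log2 ratios under alternatives, 78 stayed within 0.25 of the reported value, 41 moved by more and 1 called value changed sign: Bach2 between P6+ and P6- cells was 0.52 with P6- cells of the same prefix. Ratios under the 2-fold limit also changed sign between P6+ and P6- cells, under 2 of 11 alternatives each for Prdm1, Id3 and Satb1 and under 1 for Id2, and within P6+ cells under 1 of 9 for Foxo1. Within P6+ cells, 13.3% of genes were past 2-fold in the higher and 11.7% in the lower direction with no filter on genes, and 8.59% in the lower direction with means over cells. Between P6+ and P6- cells, 46.8% were past it in the higher direction with the same prefix, 10.4% in the higher and 16% in the lower direction with no filter on genes, and 1.47% in the lower direction with means over cells. The median log2 ratio of all genes moved from -0.14 to 0.31 with means over cells and to -0.56 without the cell with most reads of each gene. Leaving out the 5 cells with markers of other cell types, and using the P6- cells of the same lane, were chosen after seeing the data. No paired analysis was possible because the numbers of the cells only name them and match no P6+ cell to a P6- cell.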

Other observations

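Trbv13-2 reads also split the P6- cells, 26 of which held 10 reads or more. Among these 26 cells, 0 held 10 reads of Prdm1, which allows a share of up to 11.5%, and 7 held Bach2 (26.9%, 95% exact binomial interval 11.6 to 47.8%). Id2 was present in 10 of 26 (38.5%, 20.2 to 59.4%), Satb1 in 14 (53.8%, 33.4 to 73.4%), Foxo1 in 8 (30.8%, 14.3 to 51.8%) and Id3 in 1 (3.85%, 0.0973 to 19.6%). Of the P6- cells without the segment, 7 held Prdm1 (6.80%, 2.78 to 13.5%) and 18 held Bach2 (17.5%, 10.7 to 26.2%), and these intervals overlapped those of the 26 cells. In P6+ cells with Trbv13-2, Prdm1 was present in 3 of 16 cells and Bach2 in 0. The difference was not tested.

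The share of P6- cells with 10 reads of a gene also varied between the 8 name prefixes. It ran from 5% to 54.5% for Id2, from 25% to 63.6% for Satb1, from 25% to 42.9% for Foxo1, from 7.14% to 31.2% for Bach2, from 0% to 16.7% for Prdm1 and from 0% to 10% for Id3. One removed P6- cell held 16343 Satb1 reads among 629840, with 29.6% of its reads on mitochondrial genes.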
